A study of Homo sapiens with 3 samples.

Results

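The 9 genes described here are 8 that write, read or remove DNA methylation and the repair gene MGMT, namely DNMT1, DNMT3A, DNMT3B, UHRF1, TET1, TET2, TET3, MBD2 and MGMT. They were chosen by name, and all probe sets that name 1 of these genes alone were taken, which gave 19 probe sets. All 9 genes were measured, out of 19775 genes with such probe sets on the array. The samples were cells of the neuroblastoma lines IMR-32 and NGP, each in growth medium, and a reference pool of mRNA from 16 different cancer cell lines. The study names no treatment for any of them. Each of the 3 samples was hybridized to 1 Affymetrix array, so differences between samples cannot be set against replicates and p-values are left out. IMR-32 and NGP are single established lines, both with amplified MYCN in the study, and they were grown in different media, so that line and medium cannot be told apart. A high signal of the pool can come from few of its lines or from all of them, and this also cannot be told apart.

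Methylation of cytosine in CpG dinucleotides is set up by the de novo methyltransferases DNMT3A and DNMT3B and copied to the new strand after replication by DNMT1, which UHRF1 guides to hemimethylated sites. The TET enzymes oxidise methylated cytosine and so start its removal, and MBD2 binds methylated CpG and brings the NuRD chromatin remodelling complex to it. MGMT removes alkyl groups from guanine in a single step that uses up the protein, and methylation of its CpG-rich promoter is a known route to its silencing in tumours, which bears on their response to temozolomide. Expression alone was measured here, and the methylation of no site was read.

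A promoter window of MGMT and of DNMT3B is shown because CpG is the substrate of DNA methylation. Among the windows of the 9 genes, these lie near the upper and at the lower end of CpG content. Starts of these genes that are not listed were not examined, so a window need not stand for every promoter of its gene. The RefSeq promoter sequences (GRCh38.p14) run from 250 bases before to 50 bases after a transcription start, and every CpG is in capitals. MGMT is on the plus strand at chr10:129466991-129467290, and DNMT3B on the plus strand at chr20:32779602-32779901.
MGMT: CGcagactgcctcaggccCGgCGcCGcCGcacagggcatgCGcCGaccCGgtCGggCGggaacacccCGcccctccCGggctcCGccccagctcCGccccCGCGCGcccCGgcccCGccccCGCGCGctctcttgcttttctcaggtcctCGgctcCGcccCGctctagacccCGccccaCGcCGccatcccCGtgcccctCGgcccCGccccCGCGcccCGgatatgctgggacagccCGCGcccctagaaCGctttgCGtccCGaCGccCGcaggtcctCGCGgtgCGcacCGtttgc
DNMT3B: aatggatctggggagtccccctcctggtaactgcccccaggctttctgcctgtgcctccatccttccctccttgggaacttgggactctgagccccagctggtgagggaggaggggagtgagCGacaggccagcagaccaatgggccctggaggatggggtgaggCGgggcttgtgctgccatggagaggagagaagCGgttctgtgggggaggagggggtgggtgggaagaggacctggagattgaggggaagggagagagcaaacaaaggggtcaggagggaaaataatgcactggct
The MGMT window holds 45 CpG, more than 96.5% of the 35114 promoter windows in the table, and the DNMT3B window holds 3, more than 18.2% of them. The table lists 20 starts for the 9 genes, with 3 to 46 CpG and a median of 29, against a median of 14 over all windows. For 15 of the 20 starts the count was above that overall median.

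A promoter window of UHRF1 is shown because of a match to an E2F motif. It is the only one of the 20 windows with a match to either motif searched on both strands, TTTCCCGC and TTTGGCGC. Other starts listed for UHRF1 have no match. E2F factors drive genes of S phase. The window lies on the plus strand at chr19:4909251-4909550, and the capitals mark the match to TTTCCCGC, here read from the opposite strand.
UHRF1: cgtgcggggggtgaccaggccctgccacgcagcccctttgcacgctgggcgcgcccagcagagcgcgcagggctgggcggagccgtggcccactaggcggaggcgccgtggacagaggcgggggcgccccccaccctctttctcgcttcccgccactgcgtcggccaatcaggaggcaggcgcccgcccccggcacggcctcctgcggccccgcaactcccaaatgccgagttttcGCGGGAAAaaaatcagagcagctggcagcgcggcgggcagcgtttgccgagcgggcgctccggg
Of all 35114 windows, 1.63% hold TTTCCCGC and 0.652% hold TTTGGCGC. A match is a description of the letters, not a bound site.

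The values are MAS5 signals, linear and scaled to a trimmed mean of 500 per array. Expression ratios are log2 ratios of 2 arrays, and where a gene has several probe sets their median was its value. A gene was called higher or lower when it ranked among the 7% of the 19775 genes at that end, the rule that the study used. The cut-offs were 1.68 and -2.83 in IMR-32 and 1.84 and -2.88 in NGP, both against the pool. They were 1.95 and -1.84 when NGP was set against IMR-32. The median of all genes was -0.23, -0.22 and 0.02 in these comparisons. As a scale, the spread between probe sets of 1 gene is given, which is a standard deviation of 1.31, 1.41 and 1.28 over all probe sets. It was 0.57, 0.65 and 0.52 over probe sets with both signals at or above the median of their arrays. This spread is not a replicate error, since probe sets of a gene share the same arrays and cultures. It does not say whether a difference would recur. Array medians were 89.9 in IMR-32, 98.8 in NGP and 119 in the pool. Of the 19 probe sets, 11 were at or above the median in all 3 arrays, and 8 were below it in the pool.

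The labelled cell type was checked by markers. Of the 8 sympathoadrenal markers 7 were measured, and 4 of them were called higher than the pool in IMR-32 and 7 in NGP. TH and DBH, the enzymes of catecholamine synthesis, were not higher than the pool in IMR-32 (log2 ratios of -1.40 and -0.33). All 5 epithelial markers were called lower in both lines, with summed signals of 371 in IMR-32 and 284 in NGP against 56210 in the pool. The mesenchymal markers summed to 1162, 1553 and 5752, and the 2 haematopoietic markers measured summed to 45.9, 111 and 198. The pool thus carries epithelial transcripts that were dim in both lines, and the part of this in the ratios below was not tested.

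**Figure D1:**
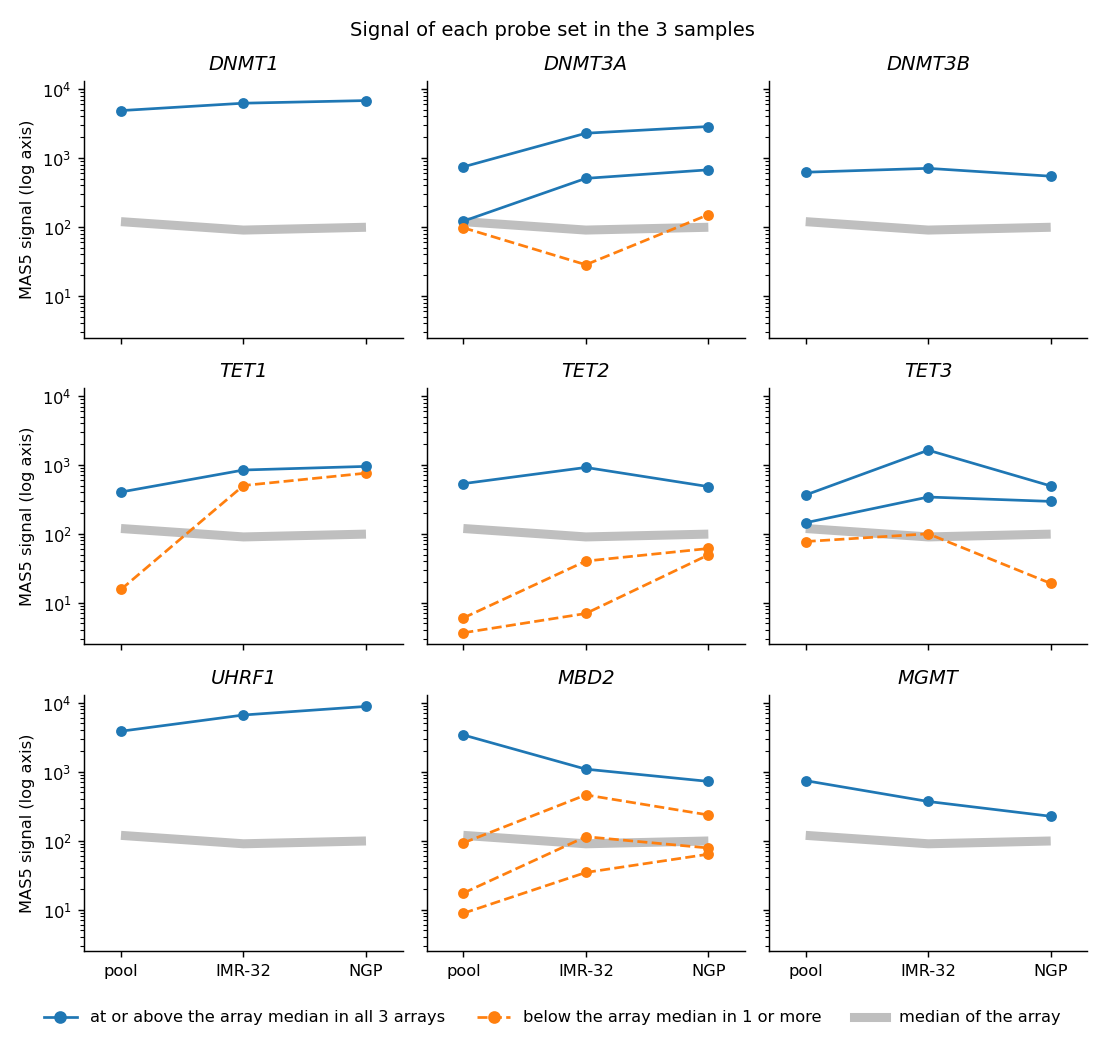
MAS5 signal on a log axis of each of the 19 probe sets (1 panel per gene) in the pool, IMR-32 and NGP, with the median of each array as a grey band. Solid blue lines are probe sets at or above the array median in all 3 arrays, and dashed orange lines are probe sets below it in 1 or more. MGMT and the brightest MBD2 probe set run downwards from the pool to NGP, and UHRF1 and the 2 brighter DNMT3A probe sets run upwards.

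Over the pool, 8 of the 9 genes had positive ratios in IMR-32 and 7 of 9 in NGP, where 41.6% and 42.3% of all genes did. These counts include MBD2, whose brightest probe set was below the pool in both lines (-1.65 and -2.24). They also include TET2, whose brightest probe set was at -0.14 in NGP. Over the 9 genes the median ratio was 0.93 for IMR-32 and 1.19 for NGP. In IMR-32, 2 genes were called higher, TET1 and MBD2, beside 7% of all genes by construction. In NGP 3 were called higher, DNMT3A, TET1 and TET2, where again 7% of all genes are. No gene of the 9 was called lower in either line, where 7% of all genes are in each. Between the lines, none was called in either direction (7% of all genes in each), and the ratios of NGP over IMR-32 ran from -1.72 to 0.61. Since all comparisons over the pool share 1 pool array, a deviation of that array enters both lines alike. The calls of TET1, TET2 and MBD2 rested on probe sets with dim pool signals, as given for each gene.

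**Figure D2:**
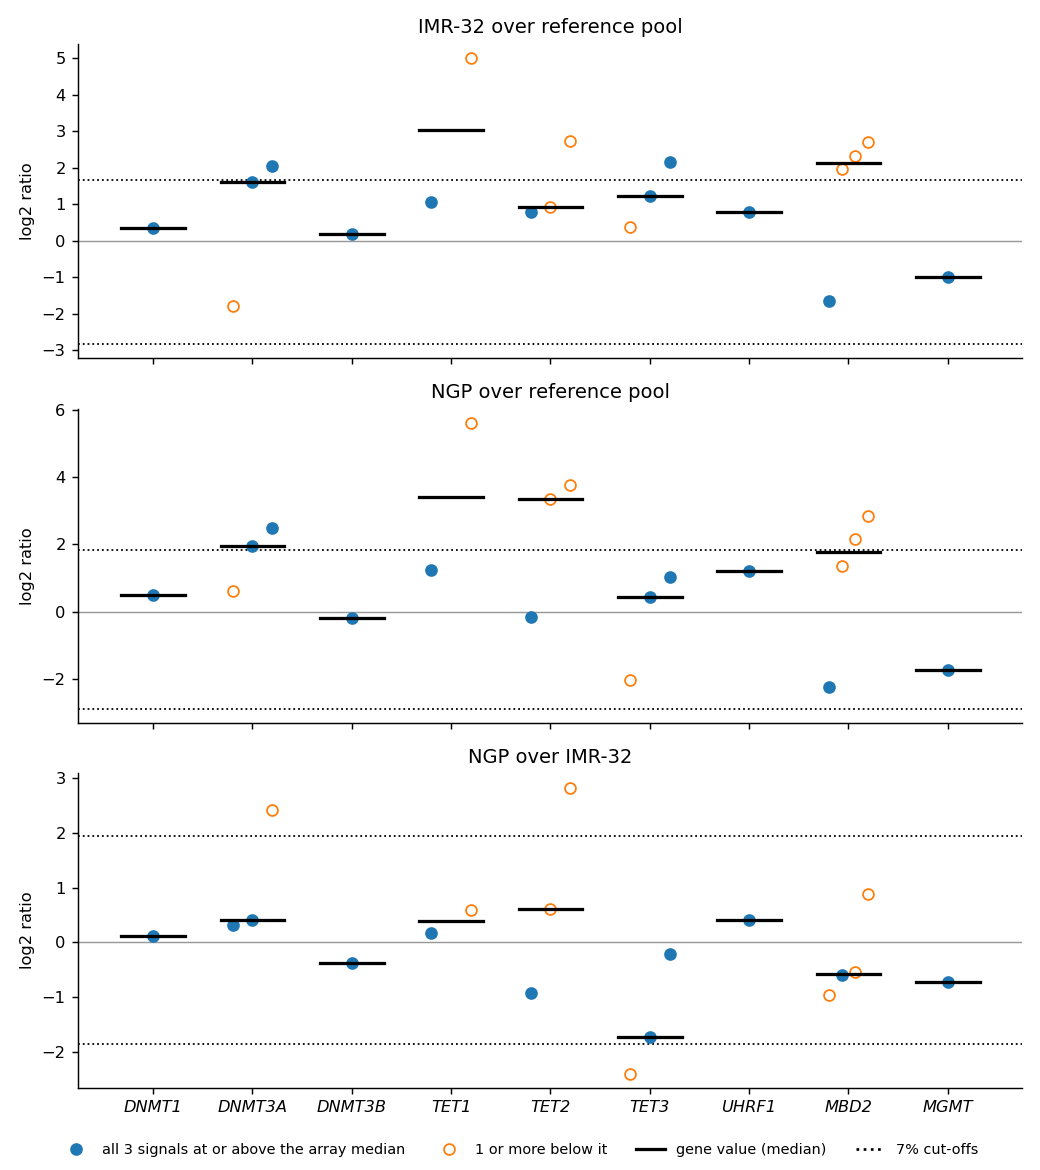
Log2 ratio of each probe set (points) and of each gene (black bars, the median) in the 3 comparisons (IMR-32 and NGP against the pool, NGP against IMR-32), with dotted lines at the 7% cut-offs. Filled points have all 3 signals at or above the array medians and open points do not. The filled points of DNMT3A lie between 1.62 and 2.47 over the pool, while the single filled point of MBD2 lies at -1.65 and -2.24, below 0 where its open points lie above.

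DNMT3A, a de novo methyltransferase, had higher signals than the pool in both neuroblastoma lines by each of its 2 bright probe sets, and as a gene it was called higher in NGP. Its brightest probe set had a signal of 742 in the pool, 2281 in IMR-32 and 2853 in NGP. The next one had 121, 505 and 672, and its pool signal was only just above the array median of 119. The pool was lowest and NGP highest by both. The log2 ratios were 1.62 and 2.06 in IMR-32 and 1.94 and 2.47 in NGP, more than the spread of 0.57 and 0.65 between bright probe sets. The remaining, dim probe set (97.2 in the pool, 28.3 in IMR-32 and 150.4 in NGP) had ratios of -1.78 and 0.63. The gene value was 1.62 in IMR-32 (3.07-fold), just inside the uncalled range, and 1.94 in NGP (3.84-fold), above the cut-off. Its position near the cut-offs made the call depend on the setting. In NGP the call held under 5 of 11 alternatives, and it was lost with quantile normalization, the brightest probe set, the mean, no _s_at and _x_at probe sets, cut-offs over all probe sets, and the top 5%. In IMR-32 it was called under 4 of 11, and the mean over probe sets was 0.63. Over probe sets at or above the median of all 3 arrays, an alternative chosen after seeing the data, it was called in both lines, at 1.84 (cut-off 1.37) and 2.21 (cut-off 1.44). The bright probe sets were higher in NGP than in IMR-32 by 0.32 and 0.41, less than the spread of 0.52. In IMR-32 the value was -0.08 without probe sets ending in _s_at and _x_at, where the dim probe set is 1 of the 2 left.

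DNMT3B, the other de novo enzyme, did not stand out. Its 1 probe set had a signal of 620.3 in the pool, 706 in IMR-32 and 543 in NGP. The ratios of 0.19 and -0.19 over the pool and of -0.38 between the lines were all smaller than the spread between bright probe sets. The cofactor DNMT3L, which has no catalytic activity of its own, had signals of 35.9, 24.9 and 7.14, all below the array medians, so that its ratios are not firm.

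The maintenance genes were bright on every array, and neither was called in any comparison. UHRF1 had a signal of 3856 in the pool, 6627 in IMR-32 and 8827 in NGP, each above those of at least 95.7% of the probe sets of its array. DNMT1 had 4857, 6217 and 6788. Both genes were lowest in the pool and highest in NGP. The UHRF1 ratio was 0.78 in IMR-32 (1.72-fold) and 1.19 in NGP (2.29-fold), more than the spread between bright probe sets, and below the cut-offs. The DNMT1 ratio was 0.36 in IMR-32 (1.28-fold) and 0.48 in NGP (1.40-fold), less than that spread. NGP exceeded IMR-32 by 0.41 for UHRF1 and by 0.13 for DNMT1, in both cases less than the spread.

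Among partners of maintenance methylation and genes of S phase, 1 gene of each list was called higher in NGP and none in IMR-32. By construction 7% of all genes are called at each end. Of the 6 partners measured, 5 had ratios above 0 in IMR-32 and 4 in NGP, with medians of 0.36 and 0.45. Over the pool, 41.6% and 42.3% of all genes were above 0 in these lines. USP7, which deubiquitinates DNMT1 and UHRF1, was at -0.41 and -0.16. HELLS, a chromatin remodeller needed for methylation of repeats, was at 0.96 in IMR-32 and at 2.25 in NGP, where it was called higher. CDCA7, which recruits HELLS, was at 1.17 and 1.40. UHRF2, the paralog of UHRF1, was at 0.04 and 0.09. Of 12 S phase genes, 11 were above 0 in IMR-32 and 9 in NGP, with medians of 0.62 and 0.65. MCM6 of the replicative helicase, at 1.21 and 1.88, was the only one called, and only in NGP. TYMS, thymidylate synthase, was at 0.31 and -0.68, and MCM2, also of the helicase, at 0.62 and -0.32. How far the UHRF1 and DNMT1 ratios follow the share of cells in S phase was not tested.

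The TET genes differed between their probe sets, and with the brightest probe set of each the only one called was TET3 in IMR-32. For TET1 that probe set had a signal of 403 in the pool, 839.7 in IMR-32 and 947 in NGP. Its ratios were 1.06 (2.08-fold) and 1.23 (2.35-fold), below the cut-offs. The second TET1 probe set, whose name ends in _x_at and which can cross-hybridize, had 15.6, 500.4 and 756. It gave 5.01 and 5.60, from a pool signal that only 13.9% of probe sets on the array were below. The gene values of 3.03 and 3.42, both called, are the midpoints of these unlike pairs. By either probe set TET1 was higher in both lines than in the pool, and the lines differed by 0.17 and 0.60.

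TET2 depended on the probe set in NGP. The brightest had a signal of 533 in the pool, 915 in IMR-32 and 483 in NGP, with ratios of 0.78 and -0.14. The other 2 were below the median on all arrays (3.66 and 6.01 in the pool, 6.98 and 40.1 in IMR-32, 49.4 and 61.1 in NGP) and gave 3.75 and 3.35 in NGP. The call in NGP, at 3.35, came from these. Between the lines the brightest probe set was lower in NGP, by a log2 ratio of -0.92 (1.90-fold), while the gene value was 0.61 in the other direction.

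TET3 had the largest difference between the lines among the 9 gene values. Its brightest probe set had a signal of 365 in the pool, 1628 in IMR-32 and 494 in NGP. The next had 145, 341 and 295. Both were highest in IMR-32, with ratios over the pool of 2.16 and 1.24, and of 0.43 and 1.03 in NGP. The 0.43 of the brightest in NGP is less than the spread of 0.65 between bright probe sets. The remaining, dim probe set (77.2, 99.8 and 19.1) gave 0.37 and -2.02. All 3 were lower in NGP than in IMR-32, by log2 ratios of -0.21, -1.72 and -2.39. Their median of -1.72 (3.30-fold lower) was just inside the uncalled range, and 7.78% of all genes had a lower value. With log2(signal + 32) and with the bottom 10% TET3 was called lower in NGP than in IMR-32. Over the pool its gene value of 1.24 in IMR-32 was not called. It was called there by its brightest probe set alone, against a cut-off of 1.79. It was also called, at 1.70, over probe sets at or above the median of all 3 arrays (cut-off 1.37).

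MBD2 gave opposite answers by its brightest and by its other probe sets. The brightest had a signal of 3404 in the pool, 1086 in IMR-32 and 723 in NGP. It was highest in the pool, and its ratios were -1.65 (3.13-fold lower) and -2.24 (4.71-fold lower). The other 3 were all below the array median in the pool (8.84, 17.3 and 92.6). Their signals were between 34.5 and 459.9 in IMR-32 and between 63.5 and 235 in NGP, and all were higher than the pool, with ratios of 1.97 to 2.72 and 1.35 to 2.84. The gene value of 2.14 in IMR-32, called higher, thus has the sign of the dim probe sets. With the brightest probe set the sign turned in both lines, and over probe sets at or above the median of all 3 arrays MBD2 was called lower in both (cut-offs -1.40 and -1.44). No direction is given for MBD2 as a gene. Which transcripts each probe set reads was not analysed here. Between the lines the brightest probe set was lower in NGP by -0.59, close to the spread of 0.52.

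Of the other methyl-CpG readers and the NuRD subunits, 2 genes were called, GATAD2B and MTA2, beside 7% of all genes at each end. Of 6 readers measured, 4 were above 0 in IMR-32 and 3 in NGP (medians 0.32 and 0.16), and none was called in any comparison. ZBTB38, a zinc finger reader of methylated DNA, had the lowest ratio in IMR-32 (-1.68) and was at -0.06 in NGP. Its probe sets disagreed, from -2.07 to 1.72 in IMR-32. Of 11 NuRD subunits, 7 were above 0 in IMR-32 and 8 in NGP, with medians of 0.26 and 0.39, and none was called in IMR-32. In NGP GATAD2B was called higher at 1.97 and MTA2 lower at -3.74, the latter from signals of 154 in the pool, 43.0 in IMR-32 and 11.5 in NGP. HDAC1, a deacetylase of the complex, was at -2.30 and -1.28, and its close relative HDAC2 at 1.22 and 0.59, from 1 and 2 probe sets.

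MGMT had lower signals than the pool in both neuroblastoma lines, lowest in NGP, without a call. Its 1 probe set had a signal of 739.8 in the pool, 369 in IMR-32 and 225 in NGP, all above the array medians. The pool was thus highest and NGP lowest. The log2 ratio was -1.0 in IMR-32 (2.00-fold lower) and -1.72 in NGP (3.28-fold lower), larger than the spread between bright probe sets (0.57 and 0.65) and not within the bottom 7%. Of all genes, 26.8% had a lower ratio in IMR-32 and 16.0% in NGP. Over probe sets at or above the median of all 3 arrays MGMT was called lower in NGP (cut-off -1.44) and not in IMR-32 (cut-off -1.40). NGP was lower than IMR-32 by -0.71 (1.64-fold), somewhat more than the spread of 0.52. The ratios of MGMT kept their sign under all alternatives. With 1 probe set, only centring on the median, quantile normalization and the pseudocount could change them.

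MGMT is the only gene of the 9 inside a region for which the study names a copy number change in these lines, the loss of distal chromosome 10 in NGP. TET1 is on the same chromosome but nearer the centromere. By gene order, 89 measured genes lie from SEC23IP to the telomere of the long arm. Their median ratio was -0.11 in IMR-32 and -0.81 in NGP, and NGP was lower than IMR-32 for 70 of the 89, with a median of -0.71. Of all genes, 50.8% were above 0 in NGP over IMR-32, with a median of 0.02. MGMT, at -0.71, was the gene of rank 44 from the lowest in that comparison, at the middle of the region. Against the pool it was of rank 20 from the lowest in NGP and of rank 23 in IMR-32. In NGP over IMR-32, 10 of the 89 genes were called lower and 3 higher, where 7% of all genes are at each end. Over the pool, 1 was called lower and 3 higher in NGP, and 4 lower and 9 higher in IMR-32. MGMT was not among the called genes in any of these comparisons.

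Of the 5 genes on each side of MGMT, 7 were lower in NGP than in IMR-32. MKI67, the proliferation marker next to it, had ratios over the pool of 0.59 in IMR-32 and -0.01 in NGP. EBF3, a transcription factor gene on the other side, had a median signal of 122 in the pool, 3435 in IMR-32 and 250.4 in NGP. It was called higher in IMR-32 (4.22) and lower in NGP than in IMR-32 (-3.57). C10orf143 was called lower in NGP (-4.96) from signals of 148 in the pool and 4.75 in NGP, and GLRX3, an iron-sulphur protein gene, was at -0.48 and -1.06. TCERG1L (1.16), PTPRE (1.84) and CLRN3 (0.16) were the neighbours with a higher value in NGP than in IMR-32. All signals of TCERG1L and CLRN3, and of INSYN2A among the 7 lower ones, were below the array medians, so their ratios are not firm. The share of the copy number in the MGMT values was not tested.

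**Figure D3:**
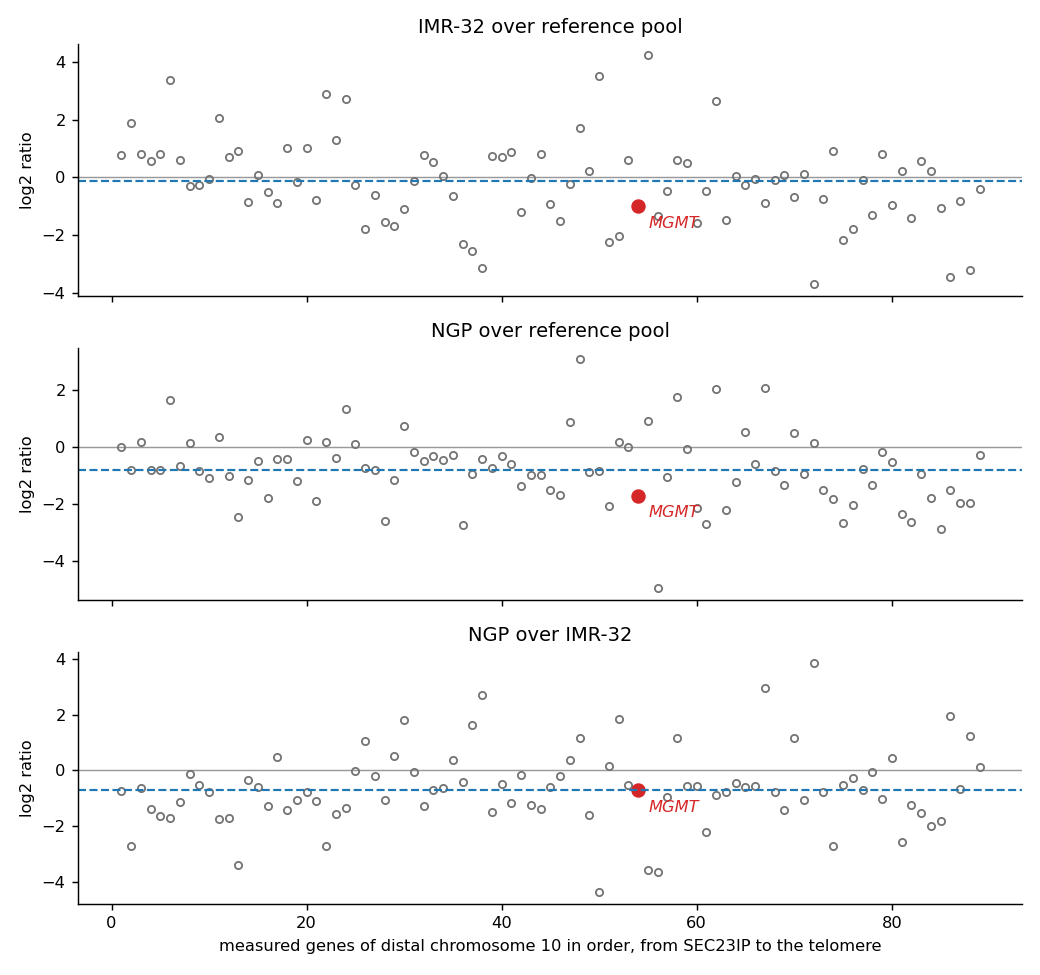
Log2 ratio of each of 89 measured genes of distal chromosome 10 (open circles) in their order from SEC23IP to the telomere, in the same 3 comparisons, 1 per panel, with MGMT as a red point and the median of the region as a dashed line. In NGP over IMR-32 MGMT lies on the dashed line at -0.71, and in the upper panels it lies below the medians of -0.11 and -0.81.

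Of the other genes of alkylation repair, MPG, a glycosylase that removes alkylated bases, also had lower signals than the pool in both lines, without a call. It had a signal of 1629 in the pool, 766 in IMR-32 and 736 in NGP, with ratios of -1.09 and -1.15. ALKBH2, a dioxygenase that reverses alkylation directly, was at 0.78 and 0.36, and ALKBH3, of the same family, at -0.32 and -0.45. The mismatch repair gene MSH6 was at 0.58 and 0.53. Of the 5 genes measured of 8 listed, none was called in any comparison, where 7% of all genes are at each end. The medians were 0.05 in IMR-32 and 0.36 in NGP.

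A further list holds genes around the removal of oxidised or deaminated methylcytosine, with IDH1 and IDH2 included. In it 1 gene was called over the pool and none between the lines (7% of all genes at each end). Of 9 measured, 7 had positive ratios over the pool in IMR-32 and 4 had them in NGP (medians 0.23 and 0.00), and 7 had negative ratios in NGP over IMR-32 (median -0.49), a comparison in which 50.8% of all genes had positive ones. The differences between the lines were within the spread of 0.52 for some of these, such as IDH1 (-0.25), GADD45A (-0.22) and MBD4 (-0.49). TDG, the glycosylase that excises oxidised methylcytosine, had ratios of 1.24 and 0.59. IDH2, which makes the cosubstrate of the TET enzymes in mitochondria, was at 0.87 and 0.06, and IDH1 in the cytosol at -0.32 and -0.54. GADD45B, a stress gene linked to demethylation, was called lower in both lines (-3.75 and -3.73). GADD45G was at 1.38 and -0.42.

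Among readers of unmethylated CpG, 2 of 7 were called higher in NGP, both over the pool and over IMR-32, and none in IMR-32. The share over all genes is 7% at each end. CXXC4, whose CXXC domain is related to the part that TET2 lost in evolution, was at 0.28 in IMR-32 and 2.47 in NGP. KDM2B, a histone demethylase, was at 0.15 and 3.04, and it lies in the 12q24.31 amplicon of NGP. CXXC5 was below the pool in both lines, at -1.90 and -2.01, without a call. The medians of the list were 0.15 and 0.11. Of 5 genes of methyl donor supply, only MAT2B was called, beside 7% of all genes at each end. This regulatory subunit of S-adenosylmethionine synthetase was at 2.66 in IMR-32 and 0.59 in NGP, and lower in NGP than in IMR-32 (-2.07). The medians of that list were 0.10 and 0.47. MAT2A, the catalytic subunit, was at 0.62 and 0.76.

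Germline genes that promoter methylation is known to silence were dim. Of 6, 5 were below the pool in IMR-32 and 4 in NGP, with medians of -0.86 and -1.38, and 5 had all signals below the array medians. MAEL, which acts against transposons in germ cells, was called higher in both lines (3.42 and 4.0), and TEX101 was called higher in NGP than in IMR-32 (2.10). SYCE1 was called lower in IMR-32 (-3.20). All signals of these 3 genes were below the array medians, so the sizes are not firm. Over all lists, 65 of 70 genes were measured. In IMR-32, 3.08% were called higher and 3.08% lower over the pool, and in NGP 9.23% and 3.08%, where 7% of all genes are at each end. The medians over these genes were 0.26 and 0.33.

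**Figure D4:**
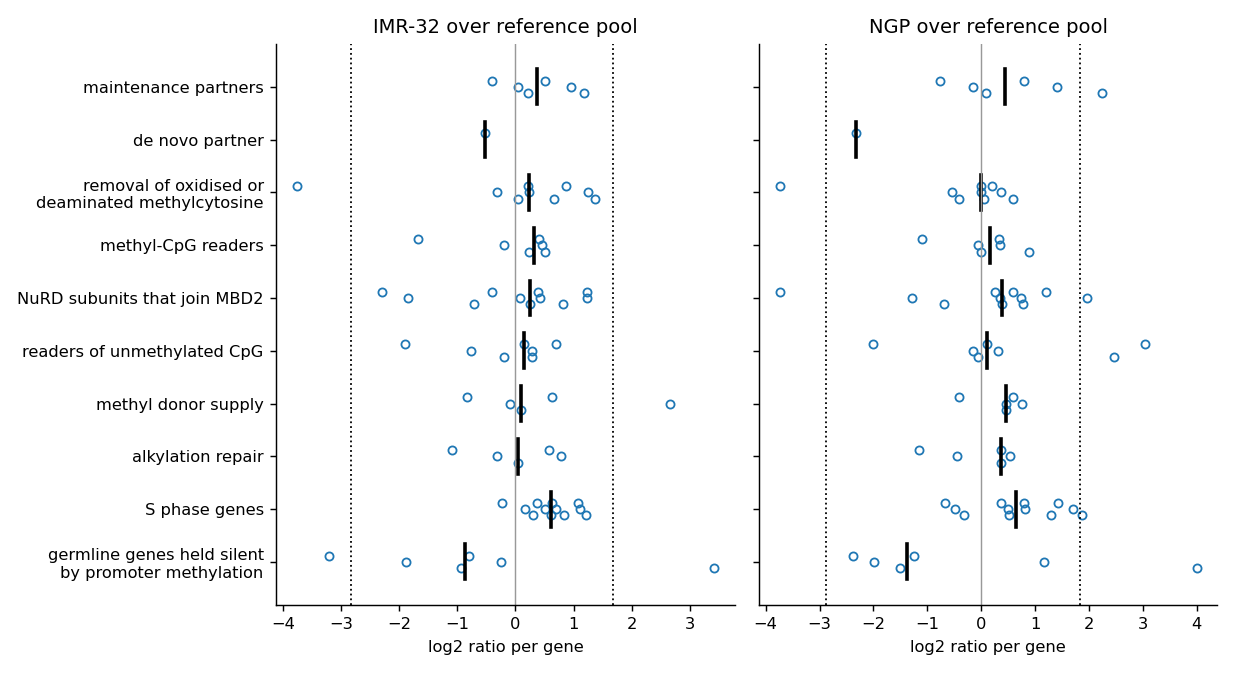
Log2 ratio over the pool of each measured gene (open circles) of 10 lists around DNA methylation and alkylation repair in IMR-32 and NGP, with list medians as black bars and the 7% cut-offs as dotted lines. Most genes lie between the cut-offs, and the S phase list has medians of 0.62 and 0.65.

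Each gene of the 9 was also set among all genes by its pair of ratios over the pool. The nearest genes were sought among 10396 others with a signal at or above the array median in every sample, by Euclidean distance over the 3 samples. Those nearest to MGMT were RARA, ATP6AP1-DT and CREB3L1, within 0.04. Those nearest to UHRF1 were SLC16A14, NUTM2B-AS1 and CEP192, within 0.02, and those nearest to DNMT3A were KIAA1958, TMEM237 and DPY19L3, within 0.03. Neighbours of TET1, TET2 and MBD2 are left out, since their gene values join unlike probe sets. With 3 samples many genes share a pattern by position alone.

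**Figure D5:**
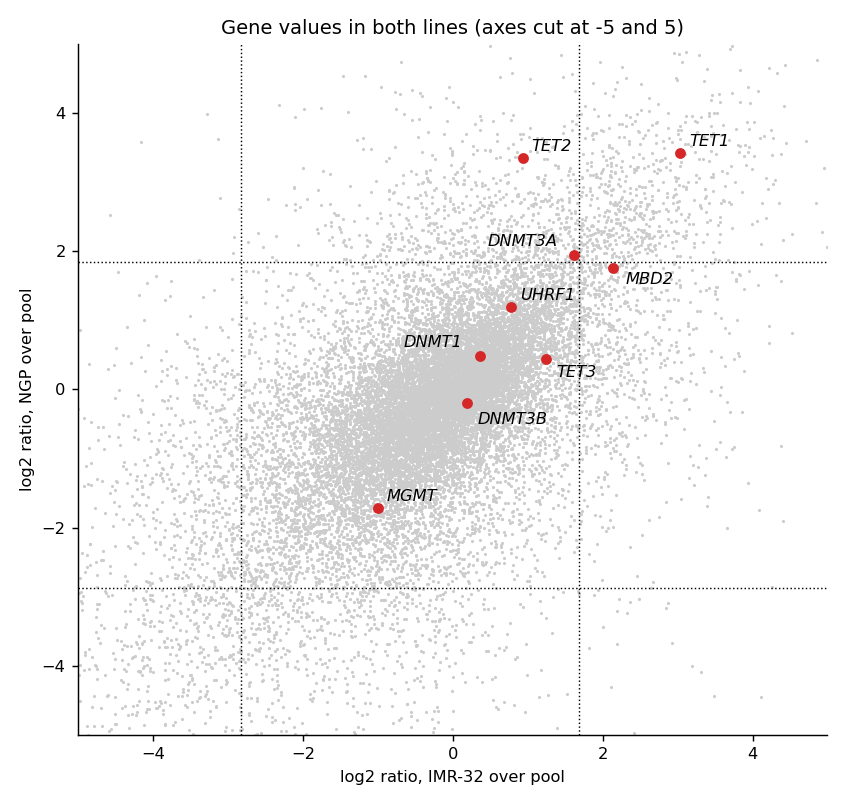
Log2 ratio over the pool in IMR-32 (x-axis) and NGP (y-axis) of all 19775 genes (grey) and of the 9 genes described (red), with the 7% cut-offs as dotted lines and axes from -5 to 5. TET1 lies beyond both upper cut-offs, at 3.03 and 3.42. By gene value MGMT is the only one of the 9 below 0 in both lines. The brightest MBD2 probe set, not plotted here, was also below 0 in both, at -1.65 and -2.24.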

How the data were processed

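Signals of 3 arrays (IMR-32, NGP and the reference pool) were used. The authors made the deposited intensity values from scans of U133 Plus 2.0 arrays by MAS5 as run in the affy package of Bioconductor (version not given in the sources). The values are on a linear scale, and none is at or below 0. No detection calls were used, and the number of arrays limits the precision.

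Of 54675 probe sets, 62 controls were left out, 41091 name 1 gene, 1801 several and 11721 none, and those with 1 gene were used. Symbols were updated by gene ID for 41037 of them from RefSeq (GRCh38.p14), and no probe set names a member with another gene. Log2 ratios were computed without a pseudocount and the median over probe sets was taken. Genes named are the 9 members, called genes and examples of 10 lists, the 5 genes on each side of MGMT and the 3 genes nearest to each member (printed for MGMT, UHRF1 and DNMT3A). The members and lists were chosen with earlier results of these data known. The 10 alternatives set at the start were ratios centred on their median, quantile normalization, a pseudocount (log2(signal + 32)), a filter that drops dim probe sets, use of the brightest probe set or of the mean, no _s_at and _x_at probe sets, cut-offs over all probe sets, and the top and bottom 5% and 10%. Restriction to probe sets at or above the median of all 3 arrays was added after seeing the data. Promoter windows were matched by symbol for all 9 genes. Python 3.11.15, numpy 2.4.6, pandas 2.3.3 and matplotlib 3.10.9 were used.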

Additional observations from a re-analysis of the deposited data

Results flagged for a closer look

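DNMT3B lay on opposite sides of the pool in the 2 lines, with a log2 ratio of 0.19 in IMR-32 and of -0.19 in NGP, from 1 array and 1 probe set each. The difference was not tested, and both ratios are smaller than the spread between bright probe sets of a gene (0.57 and 0.65). With ratios centred on their median, the NGP value was 0.03.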

How the results depend on the processing

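Of 27 ratios of the 9 genes (3 comparisons each), 20 kept their sign under every alternative that gave a value; DNMT1 and DNMT3B have none without _s_at and _x_at probe sets. Alternatives that moved only the cut-offs left all ratios unchanged by construction. Settings that pick or average probe sets could not change the 4 genes with 1 probe set. Such values are included in the counts given here. The spread used for these counts is the wide one over all probe sets (1.31, 1.41 and 1.28), not that between bright ones. DNMT3A in IMR-32, at 1.62 and at 0.63 with the mean, thus counts as within it. Of the 291 alternative values, 271 lay within this wide spread, 15 lay beyond it and 5 turned the sign of a called value. The latter were MBD2 in IMR-32, at -1.65 with the brightest probe set and with probe sets at or above the median of all 3 arrays, and TET2 in NGP, at -0.14 with these and without dim probe sets. The 2 calls of higher expression in IMR-32 became 1 with the brightest probe set (TET3), with the mean (TET1) and without _s_at and _x_at (MBD2). With probe sets at or above the median of all 3 arrays they were 2 other genes, DNMT3A and TET3, and neither TET1 nor MBD2 was called higher. The 3 in NGP became 0 with the brightest probe set and without _s_at and _x_at, and 1 with probe sets at or above the median of all 3 arrays (DNMT3A). That last setting also gave 1 call of lower expression in IMR-32 (MBD2) and 2 in NGP (MBD2 and MGMT), where there were 0. For NGP over IMR-32, log2(signal + 32) and the bottom 10% each gave 1 call of lower expression (TET3) in place of 0. Among the other listed genes, the 2 calls of higher expression in IMR-32 became 6 with log2(signal + 32) and 1 without dim probe sets or with the brightest, and the 2 of lower became 1 without dim probe sets or with the bottom 5%. In NGP the 6 of higher became 10 with log2(signal + 32), and the 2 of lower became 1 with the brightest and 0 without _s_at and _x_at. For NGP over IMR-32 the 3 of higher became 1 with cut-offs over all probe sets or the top 5%. The 2 of lower became 0 with the brightest, with cut-offs over all probe sets and with the bottom 5%, 1 without _s_at and _x_at, and 5 with the bottom 10%. The cause was not tested, beyond the smaller or larger share called. The median of distal chromosome 10 moved by less than the spread in all comparisons, from -1.01 to -0.52 for NGP over IMR-32. No paired analysis was possible because each group has 1 sample.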
